A study of Homo sapiens with 6 samples.

Results

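The BCL2 family genes examined here were the 10 genes BCL2, BCL2L1, MCL1, BAX, BAK1, BID, BAD, BBC3, PMAIP1 and BCL2L11, chosen by name from a table of 67140 Ensembl gene identifiers, and all 10 were found and passed the filter on low counts. The table came from RNA sequencing of KYSE150, a cell line of human esophageal squamous cell carcinoma (ESCC). The cells carried a short hairpin RNA (shRNA) against the long noncoding RNA AC007128.1 (shAC007128.1, 3 samples) or a control hairpin (shCtrl, 3 samples). Both groups were stable lines made with lentivirus and selected with puromycin, and each rested on 1 hairpin, so an effect of the target and one of that particular hairpin cannot be told apart. The comparison asked how depletion of AC007128.1 changed the transcriptome of ESCC cells.

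Proteins of the BCL2 family decide whether the outer membrane of mitochondria is opened during apoptosis. Guardians such as BCL2, BCL-XL (from BCL2L1) and MCL1 hold the membrane closed, the effectors BAX and BAK1 form the pores through which cytochrome c leaves, and the BH3-only proteins (here BID, BAD, BBC3, PMAIP1 and BCL2L11) sense stress and either block the guardians or activate the effectors. Squamous carcinoma cells, like many epithelial tumours, commonly rely on MCL1 and BCL-XL for survival. Several members act mainly after splicing, cleavage or phosphorylation, none of which counts per gene record.

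The hairpin was matched to its target first. Its 19-base stem was found in exon 6 of 7 of AC007128.1 on the plus strand at chr7:8343202-8343220 (hg38). The site is shown here, with no capitals, because the shAC007128.1 hairpin was made against it.

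shAC007128.1 target site: ccacaagtcctggcacatt

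The heptamer GGCACAT, which pairs with the seed of the hairpin's guide strand, was absent from the canonical transcripts of all 10 members (0 of 10). Of 20046 protein-coding canonical transcripts 16.2% held it, and 10 transcripts are too few to be set against that share. Other transcripts of the members were not searched. AC007128.1 itself (ENSG00000229970) was counted 69, 33 and 53 times in the shCtrl samples and 18, 37 and 15 times in the shAC007128.1 samples. The groups overlapped, since replicate 2 of shAC007128.1 lay above replicate 2 of shCtrl. After scaling, the level was 0.712 ± 0.273 CPM, the counts scaled to library size (mean ± SD, n = 3) in shCtrl and 0.417 ± 0.224 CPM in shAC007128.1. The log2 fold change of -0.77 (SE 0.51) did not pass the test (edgeR quasi-likelihood test with Benjamini-Hochberg adjustment, adjusted p = 0.271). The two-sided exact permutation test gave p = 0.2, where 0.1 was the smallest value that 3 against 3 samples allow. The counts, 15 to 69 per sample, thus do not show the depletion that the labels state. The authors report separately, from qPCR, that their hairpin lowered AC007128.1 RNA. The groups are named by their labels throughout.

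Totals were 65140326 to 78610457 counts in shCtrl and 55764405 to 60158244 counts in shAC007128.1, and 3 counts corresponded to 0.0373 to 0.0546 CPM. The labelled cell type was checked with markers. Of 9 squamous epithelial markers all were detected, with summed levels of 2130 to 2170 CPM in shCtrl and 2980 to 3720 CPM in shAC007128.1. KRT5, KRT14, KRT6A, EPCAM, CDH1 and SFN rose, DSG3 fell, and KRT17 and TP63 did not pass the test. SFN and TP63 also stand in the apoptosis lists described below. Summed levels of 10 markers of blood, endothelial, muscle, fibroblast and liver cells (PTPRC, CD79A, CD3E, PECAM1, CDH5, MYH11, DES, COL1A1, COL1A2 and ALB) were 15.4 to 17.7 CPM in shCtrl and 18.1 to 21.4 CPM in shAC007128.1. COL1A1, a collagen chain, made up most of that sum at 13.3 to 18.6 CPM, and PTPRC, CDH5, DES, COL1A2 and ALB were too low to be tested. CD3E, PECAM1 and MYH11 were tested and did not pass, at no more than 0.929, 0.654 and 1.58 CPM in any sample, respectively. CD79A and COL1A1 rose, although CD79A stayed at or under 0.344 CPM. The part of these marker differences in the results that follow was not tested. In bulk RNA, fewer cells that express a gene and less of its RNA per cell cannot be told apart.

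Across all 19254 genes tested, 21.0% were higher and 19.8% lower in shAC007128.1 at an adjusted p of at most 0.05, which is what "passed" means below. Counting both directions, 30.0% of the 10 members passed, less than these shares of all genes added up. BID and BCL2L11 passed as higher and BBC3 as lower. These 3 encode BH3-only proteins, as do 5 of the 10 members. The role groups are too small for their counts to be set against the shares of all genes. With a 2-fold limit as well, 5.57% of all genes were higher and 10.1% lower, and 0 of 10 members were called. The count of members at an unadjusted p under 0.05 was 5 by edgeR, 4 by DESeq2 and 5 by limma-voom, and each of these tools left 3 after adjustment and 0 at 2-fold. BID and BBC3 were among the 3 by each tool, and the other was BCL2L11 by edgeR and DESeq2 but MCL1 by limma-voom. The median log2 fold change was 0.15 over the members and -0.02 over all genes, and its median size was 0.28 over the members and 0.51 over all genes. Groups did not overlap, with every shAC007128.1 sample above every shCtrl sample, in 27.0% of all genes and in MCL1 and BID. They were separated in the other direction in 28.2% of all genes and in BAK1 and BBC3. The labels do not say that replicates were separate cultures, so p-values measure the spread between these samples, which may be technical.

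**Figure D1:**
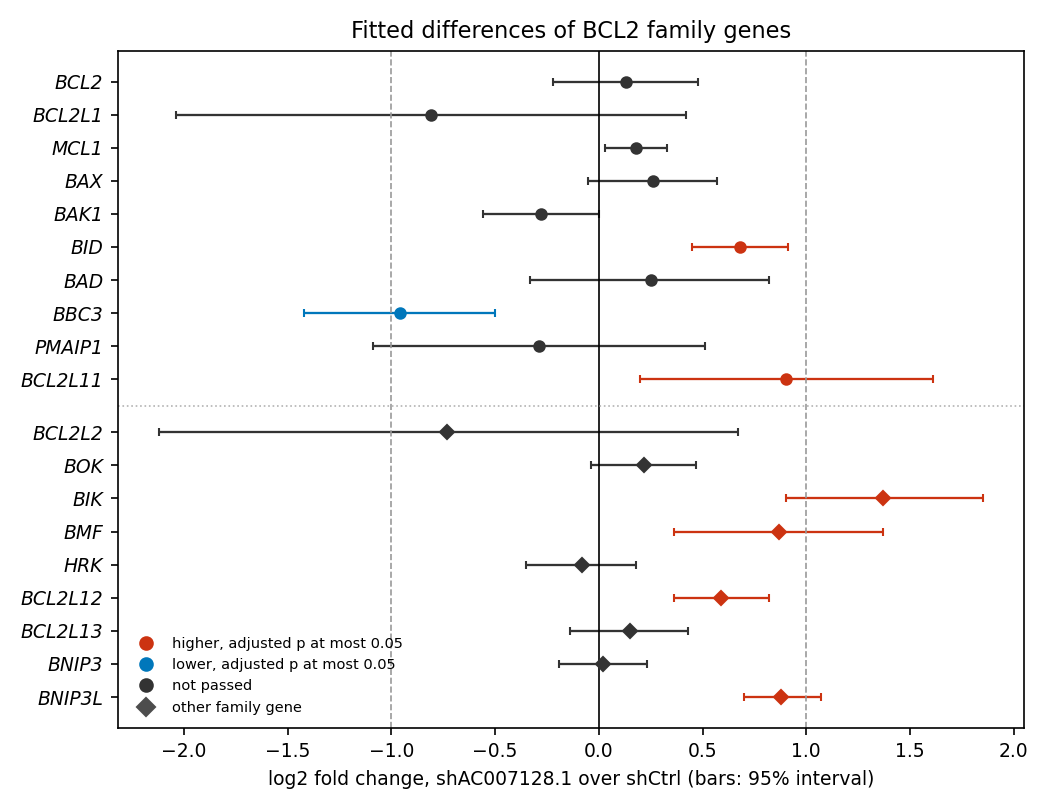
Log2 fold change (shAC007128.1 over shCtrl, x axis) of the 10 members (circles) and 9 other family genes (diamonds), with 95% confidence intervals from the edgeR fit. Red is higher and blue lower at an adjusted p of at most 0.05, and dashed lines mark 2-fold. The intervals of BID (0.45 to 0.91), BBC3 (-1.42 to -0.50) and BCL2L11 (0.20 to 1.61) lie away from 0. Those of MCL1 (0.03 to 0.33) and BAK1 (-0.56 to -0.0014) also exclude 0, but neither gene passed after adjustment. The interval of BCL2L1 spans -2.04 to 0.42.

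The stretch of 250 bases before 1 RefSeq start (GRCh38.p14) is shown for each of the 3 members that passed, because their RNA differed. By the gene positions given below, the BID and BCL2L11 windows lie within the gene and the BBC3 window partly so. Other annotated transcripts of these genes thus start further upstream. Capitals mark matches, on either strand, to motifs that the windows held. The GC box, bound by SP factors, was searched as GGGCGG. The box bound by the factor NF-Y was searched as its core CCAAT. The E-box, a site of basic helix-loop-helix factors such as MYC, was searched as CACGTG. The site of forkhead factors such as FOXO3 was searched as TGTTTAC. Each sequence is written in the direction of transcription.

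BID, minus strand, chr22:17774470-17774719: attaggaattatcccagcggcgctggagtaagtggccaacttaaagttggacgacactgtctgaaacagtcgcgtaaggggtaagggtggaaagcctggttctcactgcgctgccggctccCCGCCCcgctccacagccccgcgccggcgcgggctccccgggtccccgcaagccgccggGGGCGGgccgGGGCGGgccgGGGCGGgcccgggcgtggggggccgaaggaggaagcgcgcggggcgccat

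BBC3, minus strand, chr19:47232668-47232917: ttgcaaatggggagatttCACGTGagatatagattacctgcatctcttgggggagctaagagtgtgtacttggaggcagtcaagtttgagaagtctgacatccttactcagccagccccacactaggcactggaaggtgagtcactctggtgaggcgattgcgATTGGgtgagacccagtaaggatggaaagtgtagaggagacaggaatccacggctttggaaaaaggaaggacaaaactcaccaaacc

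BCL2L11, plus strand, chr2:111120664-111120913: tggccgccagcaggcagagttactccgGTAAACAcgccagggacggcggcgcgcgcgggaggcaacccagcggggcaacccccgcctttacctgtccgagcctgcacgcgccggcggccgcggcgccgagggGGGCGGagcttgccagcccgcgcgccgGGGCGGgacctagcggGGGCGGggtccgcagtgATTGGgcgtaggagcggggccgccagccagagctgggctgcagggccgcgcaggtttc

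The BID window held 4 GC boxes, the BBC3 window 1 CCAAT box and 1 E-box, and the BCL2L11 window 3 GC boxes, 1 CCAAT box and 1 forkhead motif. GC content was 72.0% for BID, 49.2% for BBC3 and 76.8% for BCL2L11, beside a median of 58.0% over 35116 promoters of that length. Of those promoters 42.6% held a GC box, 32.0% a CCAAT box, 6.34% an E-box and 2.98% the forkhead motif. The 3 windows lacked the other motifs searched. The TATA box, searched as TATAAA, was in 10.7% of promoters. The core of the cAMP response element, searched as TGACGT, was in 7.1% of them. A composite element of ATF and C/EBP factors, searched as TGATGCAA, was in 0.772%. The heat shock element, searched as GAANNTTC, was in 5.78%. No matches overlapped each other in the 3 windows. The BBC3 window belongs to a RefSeq start 1468 bases from the start of the canonical GENCODE transcript, while the windows of BID and BCL2L11 lie at the canonical start. Among the other members, the BAX window held 4 E-boxes, 2 CCAAT boxes and 1 GC box, and PMAIP1 had 4 GC boxes and 1 TGACGT. BAK1 had 2 GC boxes, 1 CCAAT box and 1 heat shock element, and BAD had 1 GC box, 1 CCAAT box and 1 TGACGT. BCL2 and BCL2L1 had no match, and MCL1 was among the genes not matched to a promoter (9 of 10 members matched). A match describes letters and not a bound site.

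Among the anti-apoptotic members, 0 of 3 passed. MCL1, a short-lived guardian that sequesters BAK1 and BH3-only proteins (chr1:150560895-150579738), had 352, 362 and 385 CPM in shCtrl and 411, 403 and 430 CPM in shAC007128.1. All 3 shAC007128.1 samples lay above the shCtrl samples, by a small margin. The difference was 0.18 on the log2 scale (SE 0.06, 95% interval 0.03 to 0.33) with an unadjusted p of 0.0247 by edgeR and an adjusted p of 0.058, just outside the limit. With limma-voom the same log2 difference of 0.18 had an adjusted p of 0.046. MCL1 was the steadiest member, since its spread within groups was smaller than that of all but 9.38% of genes at 10 CPM or more.

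BCL2L1, the gene of BCL-XL (chr20:31664452-31723989), had 252, 140 and 55.8 CPM in shCtrl and 118, 50.4 and 86.5 CPM in shAC007128.1. The groups overlapped and the replicates of each disagreed, with a highest-to-lowest ratio of 4.51 in shCtrl and 2.35 in shAC007128.1. Counts behind these levels ran from 2766 to 18408, so counting error was small beside these ratios. The log2 fold change was -0.81 (SE 0.52, 95% interval -2.04 to 0.42, adjusted p = 0.26 by edgeR); the interval held both a large fall and a rise. Its spread within groups (SD 0.891 on the log2 scale) exceeded that of 99.2% of the 10057 genes with a mean of at least 10 CPM, whose median was 0.135. On the opposite strand, ABALON, a long noncoding RNA, shares 1735 of the 4197 exonic bases of BCL2L1. It had 17.7, 9.1 and 18.3 CPM in shCtrl and 4.11, 9.18 and 6.09 CPM in shAC007128.1, with a log2 fold change of -1.22 (SE 0.36, adjusted p = 0.0306 by edgeR). Because the use of strand in counting is not given in the sources used here, reads from the pair cannot be told apart where they overlap. Long and short isoforms of BCL2L1, which protect from and favour death, respectively, are also summed in these counts.

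BCL2, the founding guardian (chr18:63123346-63320128), had 11.3, 11.3 and 12.4 CPM in shCtrl and 10.9, 15.1 and 12.3 CPM in shAC007128.1. The lowest and the highest value both came from shAC007128.1, so the groups overlapped. Its log2 fold change of 0.13 (SE 0.15, 95% interval -0.22 to 0.48, adjusted p = 0.52 by edgeR) fell to -0.0031 without shAC007128.1 replicate 2.

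**Figure D2:**
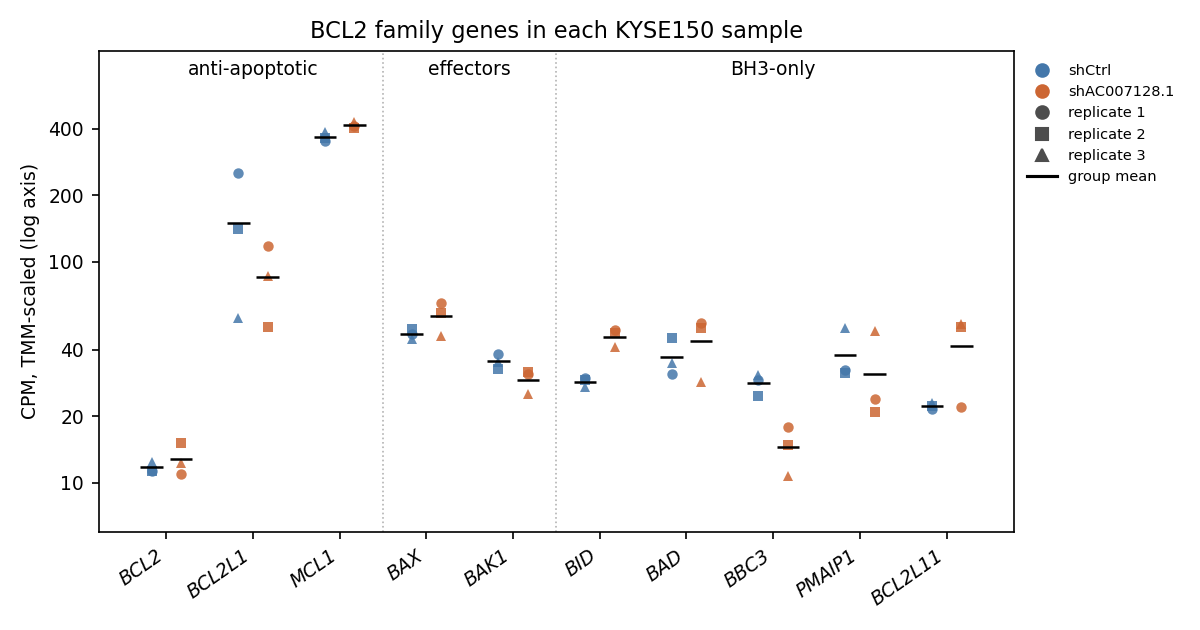
Scaled counts (CPM, log axis) of each member in the 3 shCtrl and the 3 shAC007128.1 samples, with a symbol for each replicate number and the bar at the group mean. BID and BBC3 show separate groups, BCL2L11 has 1 shAC007128.1 sample at the shCtrl level, and BCL2L1 is spread in both groups.

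The effectors also counted 0 of 2 passing. BAX, which moves from the cytosol to mitochondria to form pores (chr19:48954815-48961798), had 47.2, 49.7 and 44.5 CPM in shCtrl and 65.2, 58.3 and 46.1 CPM in shAC007128.1. Replicates 1 and 2 of shAC007128.1 lay above the shCtrl samples and replicate 3 lay among them. BAX differed by 0.26 on the log2 scale (SE 0.13, 95% interval -0.05 to 0.57), which did not pass (adjusted p = 0.159 by edgeR). Without shAC007128.1 replicate 3 it was 0.38 and passed, at an adjusted p of 0.0129 by edgeR.

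BAK1, the pore former that resides in the outer membrane (chr6:33572547-33580293), had 38.3, 32.8 and 35.1 CPM in shCtrl and 30.9, 31.5 and 25.1 CPM in shAC007128.1. The shAC007128.1 samples all lay below the shCtrl samples, though replicate 2 of both groups lay close together. The log2 fold change of -0.28 (SE 0.12) had an unadjusted p of 0.0491 and an adjusted p of 0.1 by edgeR. Its pseudogene BAK1P1 took 1 to 14 counts per sample and BAK1P2 took 0, against 1460 to 2800 for BAK1. BAX and BAK1 had opposite signs, and per exon length the ratio of BAX to BAK1 was 1.06, 1.29 and 1.08 in shCtrl and 1.8, 1.58 and 1.57 in shAC007128.1, given as a description.

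Of the 5 BH3-only members, 2 rose, 1 fell and 2 did not pass. BID, which links death receptors to mitochondria once caspase-8 cleaves it (chr22:17734138-17774770), had 29.7, 29.1 and 27.1 CPM in shCtrl and 49.0, 47.3 and 41.0 CPM in shAC007128.1. The groups were far apart, with the lowest shAC007128.1 sample well above the highest shCtrl sample. BID rose from 28.6 ± 1.36 to 45.8 ± 4.2 CPM (SD, n = 3 each), which is 160% of shCtrl. On the log2 scale the difference was 0.68 (SE 0.10, 95% interval 0.45 to 0.91, adjusted p = 0.00159 by edgeR).

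BBC3, which encodes PUMA, a stress-induced protein that binds all the guardians (chr19:47220822-47232766), had 29.2, 24.6 and 30.6 CPM in shCtrl and 17.9, 14.8 and 10.7 CPM in shAC007128.1. The highest shAC007128.1 value was well under the lowest shCtrl value. BBC3 fell from 28.1 ± 3.14 to 14.5 ± 3.64 CPM (SD, n = 3 each), that is to 51.4% of shCtrl. Its log2 fold change of -0.96 (SE 0.20, 95% interval -1.42 to -0.50, adjusted p = 0.00703 by edgeR) was the largest in size among the members, just short of 2-fold. Its exons overlap the microRNA genes MIR3190 and MIR3191, which had at most 0.0182 CPM.

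BCL2L11, which encodes BIM, a direct activator of the effectors that FOXO factors can induce (chr2:111119378-111168444), had 21.5, 22.3 and 22.9 CPM in shCtrl and 22.0, 50.4 and 52.4 CPM in shAC007128.1. Replicates 2 and 3 of shAC007128.1 lay far above the shCtrl samples, whereas replicate 1 lay within the shCtrl range. The log2 fold change was 0.90 (SE 0.30, 95% interval 0.20 to 1.61, adjusted p = 0.046 by edgeR), and the mean of 41.6 ± 17.0 CPM describes none of the 3 samples. The call was lost with limma-voom (0.80, adjusted p = 0.0802) and when any shCtrl sample or shAC007128.1 replicate 2 or 3 was left out (0.69 to 0.92). Without shAC007128.1 replicate 1 the log2 fold change was 1.21, at an adjusted p of 0.000489 by edgeR. The noncoding gene MIR4435-2HG shares 727 of 6742 exonic bases with BCL2L11 on the opposite strand, and had 43.1, 73.3 and 43.0 CPM in shCtrl and 45.2, 67.7 and 61.3 CPM in shAC007128.1. Replicate 1 was the lowest of the 3 shAC007128.1 samples in both genes, whereas replicate 2 of shCtrl was high in MIR4435-2HG alone. Its log2 fold change was 0.13 (adjusted p = 0.71 by edgeR).

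BAD, which is held inactive by phosphorylation and 14-3-3 proteins (chr11:64269830-64284704), had 30.9, 45.0 and 34.6 CPM in shCtrl and 52.8, 49.8 and 28.5 CPM in shAC007128.1. Replicate 3 of shAC007128.1 was the lowest of the 6 samples and the other two were the highest. For BAD the fitted log2 difference was 0.25 (SE 0.25, 95% interval -0.33 to 0.82, adjusted p = 0.469 by edgeR). GPR137, which shares 404 of the 1708 exonic bases of BAD on the opposite strand, had a log2 fold change of 0.09 (adjusted p = 0.671 by edgeR).

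PMAIP1, the gene of NOXA, which targets MCL1 for degradation (chr18:59899996-59904305), had 32.3, 31.2 and 50.1 CPM in shCtrl and 23.8, 20.9 and 48.4 CPM in shAC007128.1. The highest sample of each group was its replicate 3, and the groups overlapped only through replicate 3 of shAC007128.1. PMAIP1 differed by -0.29 on the log2 scale (SE 0.34, 95% interval -1.09 to 0.51, adjusted p = 0.542 by edgeR). Without shAC007128.1 replicate 3 alone it was -0.77 and passed, at an adjusted p of 0.0443 by edgeR.

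**Figure D3:**
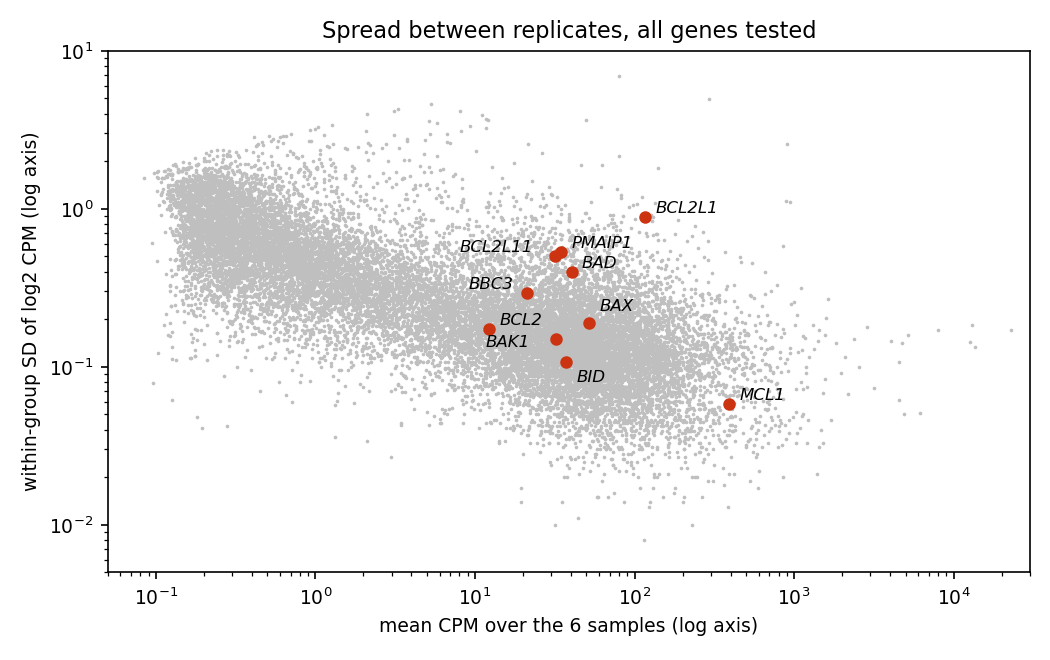
Spread within groups (pooled SD of log2 CPM, log y axis) against mean level (CPM, log x axis) for genes tested, with the 10 members marked. BCL2L1 lies above 99.2% of genes at 10 CPM or more, and PMAIP1 (96.7%), BCL2L11 (96.1%) and BAD (93.6%) also lie high, while MCL1 (9.38%) and BID (34.7%) lie low.

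Replicates of some members differed more than those of most genes. The highest replicate of a group was over 2 times the lowest in BCL2L1, PMAIP1 and BCL2L11, which is 3 of 10 members, and in 5.67% of the 10057 genes at 10 CPM or more. Different samples stood out, with replicate 1 of shCtrl and of shAC007128.1 high in BCL2L1, replicate 3 of shAC007128.1 high in PMAIP1 and replicate 1 of shAC007128.1 low in BCL2L11. Replicate 1 of shAC007128.1 was thus the highest of its group in BCL2L1 and the lowest in BCL2L11. In BCL2L1, replicate 2 of shAC007128.1 (50.4 CPM) lay about as far below the group mean of 85.1 CPM as replicate 1 lay above it. These members therefore carried the widest intervals.

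Levels of different members were compared per length, as counts per kilobase of annotated exons scaled to the same total over all genes (TPM). In shCtrl MCL1 stood first at 187 ± 12.6 TPM (SD, n = 3), followed by BCL2L1 at 112 ± 72.3 TPM, BAD at 68.7 ± 13.6, BAX at 57.9 ± 2.57, PMAIP1 at 55.3 ± 16.7 and BAK1 at 50.9 ± 3.6 TPM. The ranges of neighbours overlapped throughout these 6 genes. Below them BBC3 at 28.1 ± 3.44 TPM, BID at 20.6 ± 0.564, BCL2L11 at 10.5 ± 0.542 and BCL2 at 2.94 ± 0.212 TPM each lay apart from the next. BCL2, the gene that gives the family its name, was the lowest of the 10 in both groups.

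In shAC007128.1 MCL1 was again first, at 210 ± 3.05 TPM, and apart from BAD at 80.8 ± 25.5 TPM. BAX at 68.9 ± 12.5, BCL2L1 at 63.5 ± 24.8, PMAIP1 at 44.4 ± 20.7 and BAK1 at 41.6 ± 5.84 TPM overlapped with their neighbours. BID at 32.6 ± 3.5 TPM lay apart from BAK1 above it and from BCL2L11 (19.4 ± 7.99 TPM) below it. BBC3 had dropped to 14.3 ± 3.7 TPM, overlapping with BCL2L11, and BCL2 stood last at 3.19 ± 0.602 TPM. BBC3 thus moved from place 7 to place 9, while BID moved from 8 to 7 and BCL2L11 from 9 to 8.

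Ratios between the BH3-only genes were taken in each sample. The TPM ratio of BID to BBC3 was 0.733, 0.851 and 0.637 in shCtrl and 1.97, 2.3 and 2.77 in shAC007128.1. That of BCL2L11 to BBC3 was 0.349, 0.428 and 0.353 in shCtrl and 0.58, 1.61 and 2.32 in shAC007128.1. Both ratios separated the groups, as descriptions of genes already tested singly. The TPM ratio of BAX to BCL2 did not, with 20.3, 21.5 and 17.5 in shCtrl and 29.1, 18.8 and 18.3 in shAC007128.1. Nor did the ratio of MCL1 to BCL2L1, which ran from 0.944 to 4.66 in shCtrl and from 2.34 to 5.4 in shAC007128.1.

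**Figure D4:**
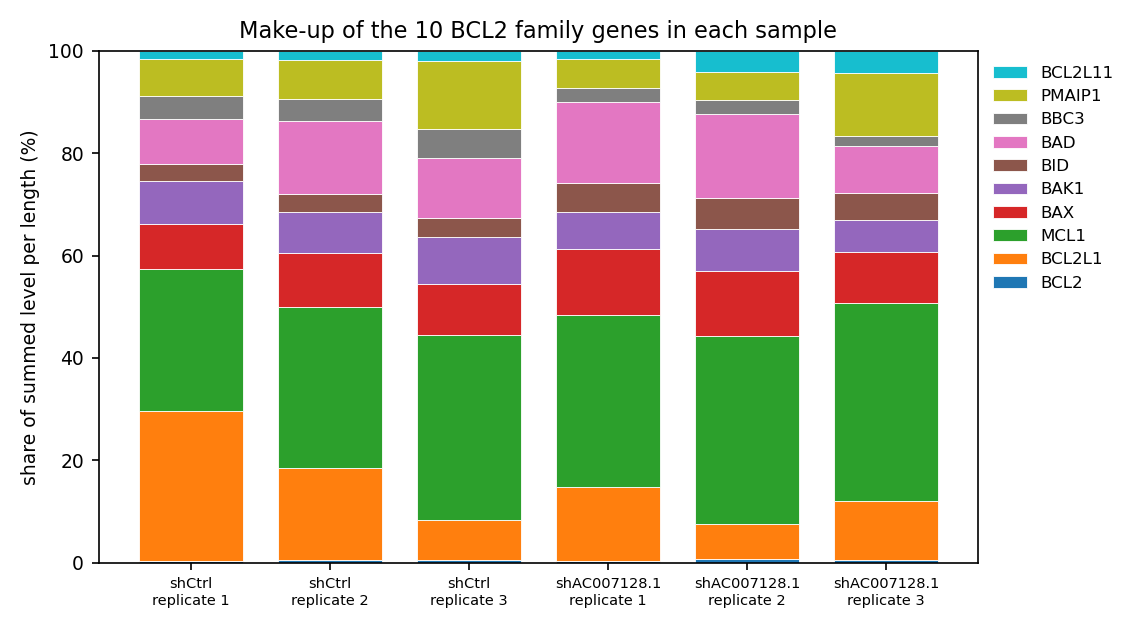
Share of each member (percent, y axis) in the summed TPM of the 10 members for each of the 6 samples, stacked by role. MCL1 takes 31.7% ± 4.24 in shCtrl and 36.3% ± 2.49 in shAC007128.1 (SD, n = 3), and BCL2L1 varies most between replicates of shCtrl (SD 10.8), while PMAIP1, BAD and BCL2L1 vary about alike in shAC007128.1 (SD 3.98, 3.97 and 3.83).

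By role, anti-apoptotic members made up 57.3%, 50.0% and 44.4% of the summed TPM in shCtrl and 48.5%, 44.2% and 50.6% in shAC007128.1. Effectors held 17.3% to 19.3% in shCtrl and 16.3% to 20.9% in shAC007128.1, and BH3-only members 25.3% to 36.3% and 31.5% to 34.9%. The groups overlapped for each role. BID took 3.47% ± 0.167 of the sum in shCtrl and 5.64% ± 0.442 in shAC007128.1, and BBC3 took 4.75% ± 0.752 and 2.46% ± 0.523 (SD, n = 3). BCL2L1 took 18.4% ± 10.8 and 10.9% ± 3.83.

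Relatives of the members were read from the same fit, in which 21.0% of all genes were higher and 19.8% lower. Of 13 other BCL2 family genes, 9 were tested, of which 4 rose, 0 fell and 5 did not pass, with a median log2 fold change of 0.22. BNIP3L, a mitophagy receptor, rose from 77.9 ± 4.95 to 144 ± 5.69 CPM (log2 fold change 0.88, adjusted p = 0.000181 by edgeR). BIK, a BH3-only protein of the endoplasmic reticulum, rose from 2.93 ± 0.564 to 7.59 ± 1.0 CPM (1.37, adjusted p = 0.00169 by edgeR). BCL2L12 rose by 0.59 on the log2 scale, and BMF, a BH3-only protein tied to the cytoskeleton, by 0.87, from 3.52 ± 0.393 to 6.42 ± 1.59 CPM. The call of BMF (adjusted p = 0.0159 by edgeR) was lost without shCtrl replicate 1 (0.0531) or shCtrl replicate 2 (0.0617). BOK (0.22), BCL2L13 (0.15), HRK (-0.08) and BNIP3 (0.02) did not pass, and BCL2A1, BCL2L10, BCL2L14 and BCL2L15 were too low to be tested.

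BCL2L2, the gene of the guardian BCL-W, had 59.8, 16.1 and 61.8 CPM in shCtrl and 40.6, 10.9 and 31.7 CPM in shAC007128.1. Replicate 2 was far below the others in both groups, the groups overlapped, and the log2 fold change of -0.73 did not pass (adjusted p = 0.372 by edgeR). BCL2L2 shares 815 exonic bases with the read-through gene BCL2L2-PABPN1 on its own strand, so the counts of the pair are uncertain. The read-through gene had 4.61, 6.19 and 1.68 CPM in shCtrl and 7.22, 2.99 and 4.04 CPM in shAC007128.1.

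Lists of genes that act around the members were read in the same way, beside 21.0% of all genes higher and 19.8% lower. The lists were chosen with earlier results of these data known, and no list was tested as a set. Among 8 mitochondrial partners of BCL2 proteins 4 rose and 1 fell (median 0.29). VDAC3 (1.14), VDAC2 (0.31, a channel that binds BAK1) and MTCH2 (0.41, the mitochondrial receptor of cleaved BID) rose on the log2 scale. Without any 1 of the shCtrl samples, 2 of the 8 rose and 0 fell, and 2 rose with no filter on low counts. The count that fell was also 0 without shAC007128.1 replicate 2 and 2 without replicate 3.

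Downstream of the membrane, 2 of 7 genes of the apoptosome and of proteins released from mitochondria rose and 0 fell (median 0.15), although 1 fell with DESeq2, with library sizes in place of TMM and without shCtrl replicate 1. APAF1, the scaffold that activates caspase-9, had 18.9, 22.1 and 16.8 CPM in shCtrl and 74.5, 94.1 and 72.4 CPM in shAC007128.1. The groups lay far apart, and the log2 fold change was 2.06 (SE 0.15, adjusted p = 8.28e-05 by edgeR). HTRA2, a protease released with cytochrome c, rose by 0.60. Of 6 caspase genes 3 rose and 1 fell (median 0.59). The executioner CASP6 (1.14) rose, and CASP8, which cleaves BID, fell from 31.4 ± 0.149 to 21.4 ± 1.28 CPM (log2 fold change -0.55, adjusted p = 0.0026 by edgeR).

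Of 7 inhibitor of apoptosis genes 6 were tested, 2 rose and 0 fell (median 0.40). These were BIRC5, or survivin (1.16), and BIRC2 (0.82), and the count was 1 without shAC007128.1 replicate 2. XIAP, an inhibitor of caspases named after its values were seen, had 18.5, 15.1 and 14.4 CPM in shCtrl and 62.1, 14.1 and 14.2 CPM in shAC007128.1, so its mean rested on replicate 1 alone. Of 12 death receptor genes 10 were tested, 0 rose and 4 fell (median -0.24). RIPK1 (-0.48), TNFRSF10B (-0.38, a receptor for TRAIL) and FADD (-0.34, the adaptor that recruits caspase-8) fell, and 2 rather than 4 fell without shCtrl replicate 1.

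**Figure D5:**
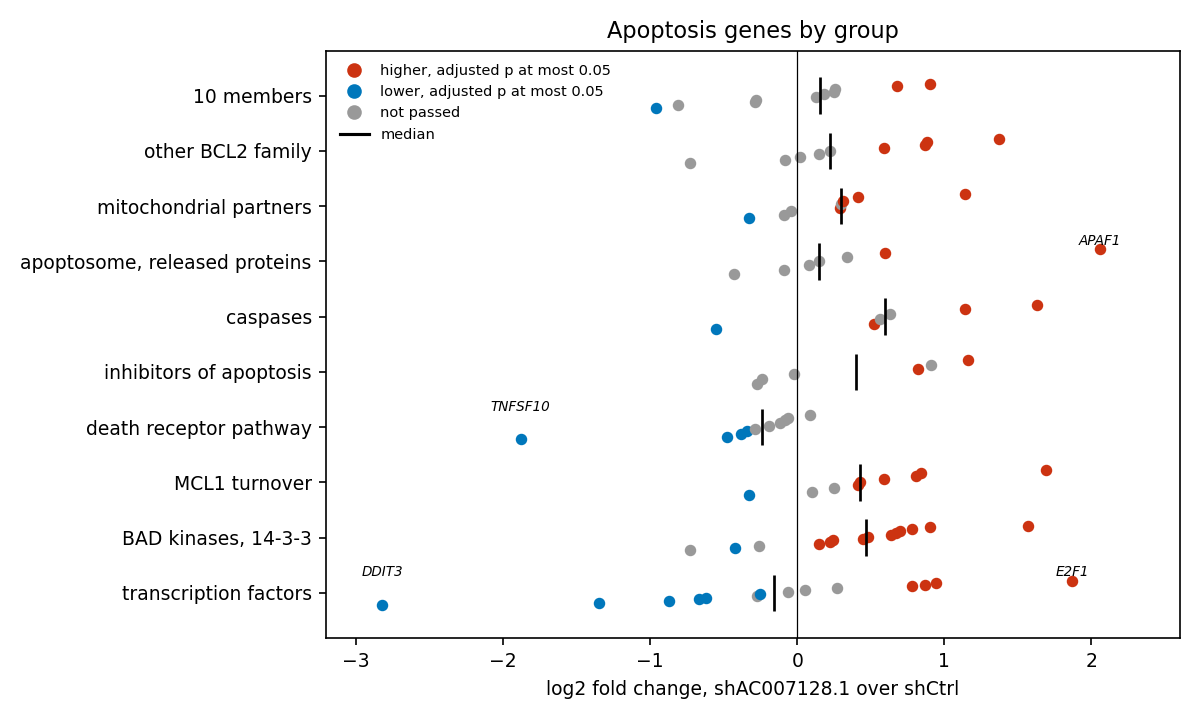
Log2 fold change (shAC007128.1 over shCtrl, x axis) of each tested gene of the member groups and the apoptosis gene lists (y axis), red where higher and blue where lower at an adjusted p of at most 0.05, with a bar at each list's median. Names mark points far from 0, TNFSF10 among them for its value of -1.88. List medians run from -0.24 for death receptor genes to 0.59 for caspases, beside -0.02 over all genes.

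Genes that act on single members were listed as well, again beside 21.0% of all genes higher and 19.8% lower. Of 9 genes of MCL1 turnover 6 rose and 1 fell (median 0.43), among them the deubiquitinase USP13 (1.69), BTRC (0.81) and SKP1 (0.59), which are subunits of an SCF ubiquitin ligase. MCL1 protein was not measured here. Of 14 kinases of BAD and 14-3-3 proteins, which bind phosphorylated BAD, 11 rose and 1 fell (median 0.47). YWHAQ (0.90), PAK1 (0.78) and YWHAH (0.45) rose. The count that rose was 6 with library sizes in place of TMM and 6 with no filter on low counts. Without shCtrl replicate 2 or 3 it was 5, without shAC007128.1 replicate 1 it was 6 and without replicate 2 it was 7, and 0 fell without any 1 of the shCtrl samples.

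Of 14 transcription factors known to act on the family 4 rose and 6 fell (median -0.15), beside 21.0% of all genes higher and 19.8% lower. E2F1, an activator of APAF1 and BH3-only genes, rose from 20.2 ± 2.07 to 74.0 ± 10.6 CPM (log2 fold change 1.87, adjusted p = 8.61e-05 by edgeR), and STAT3, an activator of MCL1 and BCL2L1, rose by 0.78. DDIT3, the stress factor CHOP, which induces BBC3 and BCL2L11, had 68.3, 79.3 and 94.8 CPM in shCtrl and 13.9, 12.6 and 7.88 CPM in shAC007128.1. All shAC007128.1 samples lay far below the shCtrl samples, with a log2 fold change of -2.82 (SE 0.23, adjusted p = 0.000143 by edgeR).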

How the data were processed

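RNA sequencing of KYSE150 cells gave 1 table of 67140 gene identifiers in 6 samples. The deposited values are estimated counts per gene, written by the authors as whole numbers without normalization. The authors sequenced both ends of poly-A libraries. They discarded ribosomal, adapter and poor reads, and TopHat placed the others on hg38. The submitters' processing notes name CASAVA 1.8, TopHat2 2.0.6, GRCh38 and also mm10. The counting program, annotation release and use of strand are not given in the sources used here. Low counts pile up at multiples of 4, and dividing by 4 was tried as an alternative.

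Samples were grouped by their titles, with 0 columns left without a sample. The treatment text is the same in both groups. Symbols, positions and exon lengths come from GENCODE v44 on hg38, which held 60357 of the identifiers, and promoters from RefSeq on GRCh38.p14. The 47886 identifiers that edgeR's filterByExpr removed were not tested. Counts were scaled by TMM and fitted over 19254 genes with edgeR 4.0.16 (glmQLFit and glmQLFTest, group only) in R 4.3.3, with Benjamini-Hochberg adjustment over all of them and limits of 0.05 and, where stated, 2-fold. Standard errors are the log2 fold change over the root of F. Alternatives were DESeq2 1.42.0, limma-voom (limma 3.58.1), other scalings and filters, a replicate block and leaving out each sample. The fits were tested on simulated data. The floors of 3 counts rest on no replicates, whereas the intervals come from the fit and include the spread between replicates.

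Members and gene lists were chosen with earlier results of these data known. Of each list the 3 passing genes with the smallest p are named, and of the other BCL2 family genes and the markers all are. A few genes and 1 list under that rule are not reported here. Other genes are said to have been named after their values were seen.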

Additional observations from a re-analysis of the deposited data

How the results depend on the processing

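BID and BBC3 passed the test under each of the 14 alternatives, at log2 fold changes of 0.61 to 0.74 and -1.15 to -0.79. BCL2L11 passed under 5 of them. The number of members that rose, 2, became 1 with library sizes in place of TMM, with no filter on low counts and with a replicate block, and ran from 1 to 2 when single samples were left out, BCL2L11 being lost each time. The number that fell, 1, ran from 1 to 2 when single samples were left out (2 without shAC007128.1 replicate 3, when PMAIP1 passed). At 2-fold, 0 members were higher and 0 to 1 without single samples (BCL2L11, without shAC007128.1 replicate 1), and 0 were lower, but 1 with library sizes only and 1 with no filter, and 0 to 1 without single samples (BBC3 in each case). Leaving out single samples moved the log2 fold change of BCL2 between -0.0031, which is reversed (without shAC007128.1 replicate 2), and 0.23. The causes were not tested. With the longest transcript as the length, 5 rather than 10 members kept their place in the order of levels in shAC007128.1, since that choice changes the length of each gene. Counts over all genes, the log2 fold change of AC007128.1 and the totals of the pathway lists stayed within 1.5 times or on the same side of the limit under all alternatives run.

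Both groups carry the replicate numbers 1 to 3. Over all genes tested, same-numbered samples did not deviate together (correlations of 0.031, -0.025 and -0.03). Such correlations cannot decide whether single genes shifted together. In both groups, replicate 2 was the lowest in BCL2L2 and replicate 3 the highest in PMAIP1. The replicate block, fitted as an alternative, gave BCL2L11 a log2 fold change of 0.81 at an adjusted p of 0.0596 by edgeR. Under the replicate block 1 of the other BCL2 family genes fell, in place of 0: BCL2L2, at -0.69 with an adjusted p of 0.011 by edgeR, against 0.123 to 0.673 under the other alternatives.

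With 3 samples a group and 1 hairpin, differences the size of those in BAX, BAK1 and MCL1 fell near the limit, and replicate spread rather than depth set the intervals. RNA levels say nothing of splicing, cleavage, phosphorylation or location of these proteins.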
